A study of Oryza sativa Japonica Group with 59 samples.

Results

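The 9 genes described here regulate the tapetum or build the pollen wall of rice, and they were chosen by their MSU locus identifiers, as 9 of the 55986 features in each RNA-seq file. They were the helix-loop-helix factors *UDT1* (LOC_Os07g36460), *TIP2* (LOC_Os01g18870), *TDR* (LOC_Os02g02820) and *EAT1* (LOC_Os04g51070), the MYB factor *GAMYB* (LOC_Os01g59660), the PHD finger protein gene *PTC1* (LOC_Os09g27620), the cytochrome P450 genes *CYP703A3* (LOC_Os08g03682) and *CYP704B2* (LOC_Os03g07250), and the lipid transfer protein gene *OsC6* (LOC_Os11g37280). All 9 were in the files, and they lie on chromosomes 7, 1, 2, 4, 1, 9, 8, 3 and 11 in that order, as their identifiers encode.

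The tapetum is the innermost layer of the anther wall and surrounds the male meiocytes and, later, the microspores. It feeds these cells, makes the lipid and phenolic precursors of sporopollenin for the outer pollen wall (exine), and then breaks down by programmed cell death. In this cascade *UDT1* acts early in tapetal differentiation, *TIP2* and *TDR* act downstream of it, and *EAT1* acts with *TDR* and activates aspartic protease genes in the dying tapetum. *GAMYB* relays gibberellin signals in the anther, *PTC1* is the rice counterpart of Arabidopsis *MS1*, *CYP703A3* and *CYP704B2* hydroxylate fatty acids for sporopollenin and cutin, and *OsC6* encodes a secreted protein that carries lipids from the tapetum to the locule.

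RNA-seq was used to measure expression in isolated reproductive cells of the japonica variety Zhonghua11 (ZH11). The WT groups came from wild-type plants regenerated through tissue culture and were male meiocyte, unicellular microspore, egg and zygote (3 libraries each) and sperm (2 files). The *cmt3b* groups were meiocyte, sperm and zygote (3 libraries each) and egg (2 libraries), and *cmt3a* was represented by egg (2 libraries). Zygotes of both genotypes were taken 6 to 8 hours after fertilization. *CMT3a* and *CMT3b* encode CHG DNA methyltransferases, and both mutants were Cas9-free CRISPR knockouts in ZH11, without a named line for each replicate. Meiocytes were released after the outer wall of the anther had been taken off, microspores were squeezed out through a hole in the anther, and sperm came from mature anthers opened in sucrose. All cells were then picked by micromanipulator and pooled for each library.

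Total counts on genes were between 9240046 and 25610860 per library, so 3 counts stood for 0.117 to 0.325 CPM (counts scaled to an equal library total). Between both WT sperm files the counts differed less than sampling noise allows (chi-square per degree of freedom of 0.240, against 1.37 to 6.73 in 23 other replicate pairs) so they were taken as 1 sample, and no test was made against WT sperm. *CMT3b* was at 5.07 to 6.48 FPKM (counts scaled by gene length and by the total count of the library) in WT meiocyte and 1.12 to 1.27 in *cmt3b* meiocyte, and at 4.76 to 4.87 in WT sperm and 0.519 to 1.05 in *cmt3b* sperm. In egg it was at 0.940 to 1.007 FPKM in WT and at most 0.0150 in *cmt3b*, and in zygote at 1.45 to 1.75 in WT and 0.632 to 0.794 in *cmt3b*. *CMT3a* was at 8.20 to 9.54 FPKM in WT egg and 3.10 to 3.40 in *cmt3a* egg. A list of 10 meiotic genes summed to 321 to 329 FPKM in WT meiocyte and 18.6 to 20.03 in WT microspore, and 2 genes listed as sperm genes (LOC_Os05g18730 and LOC_Os09g25650) summed to 1686 to 1694 FPKM in WT sperm and 1.497 to 1.79 in WT meiocyte.

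The first question was how the 9 genes were expressed along the WT male lineage. In WT meiocyte 8 of the 9 had a group mean of at least 1 FPKM, in WT microspore all 9 did, and in WT sperm only *UDT1* and *GAMYB* did. Together they took 0.194% to 0.197% of all counts in WT meiocyte, 4.02% to 4.79% in WT microspore and 0.00457% to 0.00459% in WT sperm. In bulk RNA, fewer cells of a type and less RNA per cell cannot be told apart, and how much of these levels came from anther wall RNA was not tested.

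**Figure D1:**
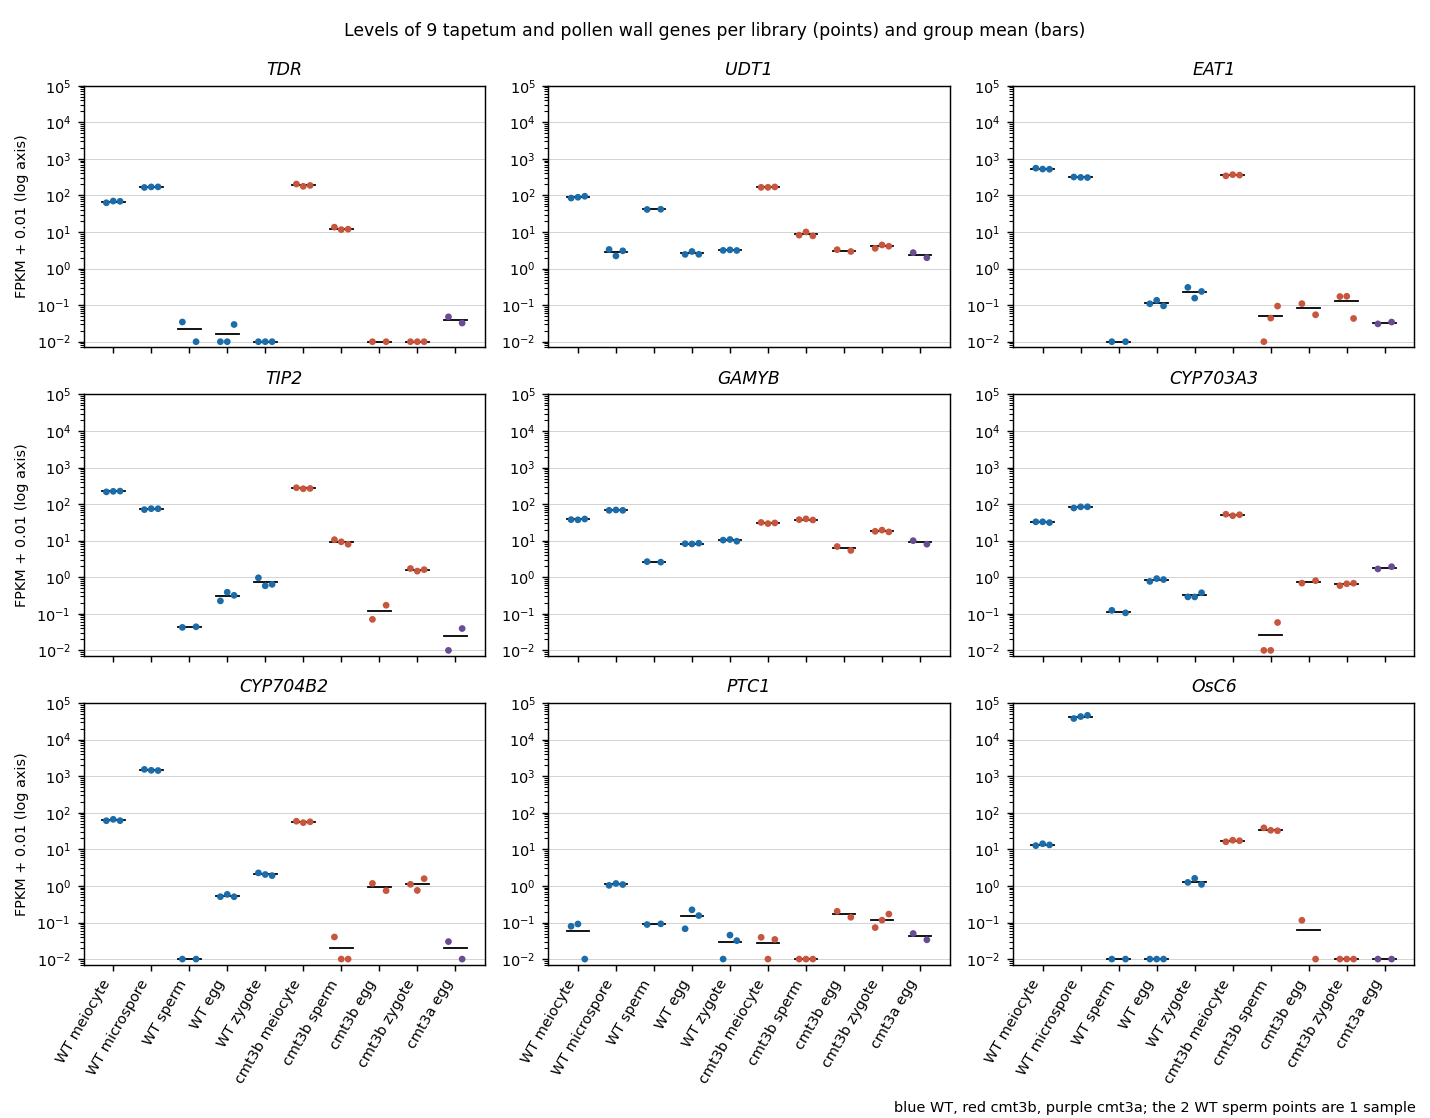
FPKM (plus 0.01, log axis) of each of the 9 genes in every library (points) and as group means (bars), by cell type and genotype. *OsC6* in WT microspore reaches 46259 FPKM, *UDT1* is lower in WT microspore than in WT meiocyte and WT sperm, and *PTC1* is at most 1.16 FPKM in any library.

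Among the early factors, *UDT1* was at 84.7, 89.2 and 94.9 FPKM in the WT meiocyte libraries, at 3.32, 2.20 and 3.04 in WT microspore, and at 41.3 and 41.8 in the 2 WT sperm files. The 3 stages did not overlap, and *UDT1* was high at the first and last stage and low between them. From meiocyte to microspore it fell by 4.66 on the log2 scale (SE 0.0996, adjusted p = 1.87e-26). Here and below, adjusted p-values come from the quasi-likelihood test of edgeR after Benjamini-Hochberg adjustment over all genes tested. A gene was called when its adjusted p was under 0.01 and its fold change over 2. The log2 ratio of WT sperm to microspore was 4.20 and that of WT sperm to meiocyte −0.55, neither with a test.

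*TIP2* was at 216, 223 and 227 FPKM in WT meiocyte and at 70.7, 75.1 and 74.8 FPKM in WT microspore. Each WT sperm file held 1 *TIP2* count. Every microspore library was below every meiocyte library, and *TIP2* fell by 1.27 on the log2 scale between the first 2 stages (SE 0.043, adjusted p = 1.91e-21, edgeR).

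*TDR* took the opposite course between the first 2 stages. Its level was 63.0, 70.1 and 68.9 FPKM in WT meiocyte and 165, 171 and 171 in WT microspore, and the WT sperm files held 1 and 0 counts. All microspore libraries were above all meiocyte libraries, and the rise was 1.65 on the log2 scale (SE 0.045, adjusted p = 7.33e-24, edgeR).

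*EAT1* was the most abundant of the 9 genes per length in WT meiocyte, at 557, 525 and 520 FPKM. It was at 319, 311 and 308 FPKM in WT microspore and had 0 counts in both WT sperm files. The meiocyte and microspore libraries did not overlap, but the change of −0.45 on the log2 scale (SE 0.039, adjusted p = 1.13e-11, edgeR) was under 2-fold and was not called. WT sperm was at least 4474-fold lower than meiocyte and at least 2973-fold lower than microspore, with the sperm level set at 3 counts in the deeper file.

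*GAMYB* was at 37.7, 37.2 and 39.2 FPKM in WT meiocyte, at 67.5, 69.3 and 67.6 in WT microspore and at 2.66 and 2.58 in WT sperm. The stages were separate, with microspore highest and sperm lowest. From meiocyte to microspore *GAMYB* rose by 1.17 on the log2 scale (SE 0.043, adjusted p = 1.39e-20, edgeR), and with total counts in place of TMM factors it was 0.84 and no longer over 2-fold. The log2 ratio of WT sperm to meiocyte was −3.29 and to microspore −4.28.

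*PTC1* was close to the counting limit except in WT microspore. It had 2, 2 and 0 counts in WT meiocyte, 23, 31 and 28 in WT microspore and 3 in each WT sperm file. The microspore libraries stood above all others, at 1.03 to 1.16 FPKM. The ratio of microspore to meiocyte was 29.9 (95% counting interval 11.7 to 110), and the difference was called (adjusted p = 9.19e-11, edgeR). In the other 8 groups with replicates its levels were between 0 and 0.212 FPKM.

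The P450 genes both rose between meiocyte and microspore. *CYP703A3* was at 32.8, 32.8 and 31.2 FPKM in WT meiocyte and 78.3, 84.1 and 84.6 in WT microspore, without overlap, and rose by 1.68 on the log2 scale (SE 0.047, adjusted p = 1.46e-23, edgeR). *CYP704B2* was at 60.8, 66.3 and 61.0 FPKM in WT meiocyte and 1539, 1451 and 1433 in WT microspore, and rose by 4.88 (SE 0.050, adjusted p = 5.27e-34, edgeR). The rise of *CYP704B2* was therefore the larger of the pair, and it ranked 21 among all features by mean FPKM in WT microspore. In the WT sperm files *CYP703A3* had 5 and 4 counts and *CYP704B2* none, so that *CYP704B2* was at least 542-fold lower in sperm than in meiocyte and at least 14463-fold lower than in microspore.

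*OsC6* showed the widest range. It was at 12.7, 14.2 and 13.3 FPKM in WT meiocyte and 37857, 42863 and 46259 FPKM in WT microspore, and no count fell on it in either WT sperm file. In microspore it was the first of all features by mean CPM and by mean FPKM, and it alone took 3.56%, 4.03% and 4.35% of the counts of the 3 libraries (95% Wilson limits from 3.55% to 4.36% over the libraries, for counting error only). In meiocyte its share was 0.00119% to 0.00134%. From meiocyte to microspore *OsC6* rose by 11.96 on the log2 scale (SE 0.094, adjusted p = 2.57e-36, edgeR), and WT sperm was at least 53.5-fold lower than meiocyte and at least 191956-fold lower than microspore.

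Over the 9 genes, 6 were called higher in microspore than in meiocyte (*TDR*, *GAMYB*, *CYP703A3*, *CYP704B2*, *PTC1* and *OsC6*), 2 were called lower (*UDT1* and *TIP2*) and *EAT1* was not called. Of all 23884 genes tested, 29.7% were called higher and 32.3% lower. *PTC1* passed the filter only through microspore and could not have been called lower. The median log2 fold change was 1.65 over the 9 genes and −0.05 over all genes tested. The latter was 1.24 without the filter on low counts and 1.44 with the DESeq2 test, which also keeps genes of low count. Leaving out *OsC6* before the totals were computed changed no call of the others in any comparison where it was run. Of 21 other tapetum and pollen wall genes, 18 passed the filter on low counts, 11 were called higher, 6 lower and 1 was not called, with a median of 2.19.

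**Figure D2:**
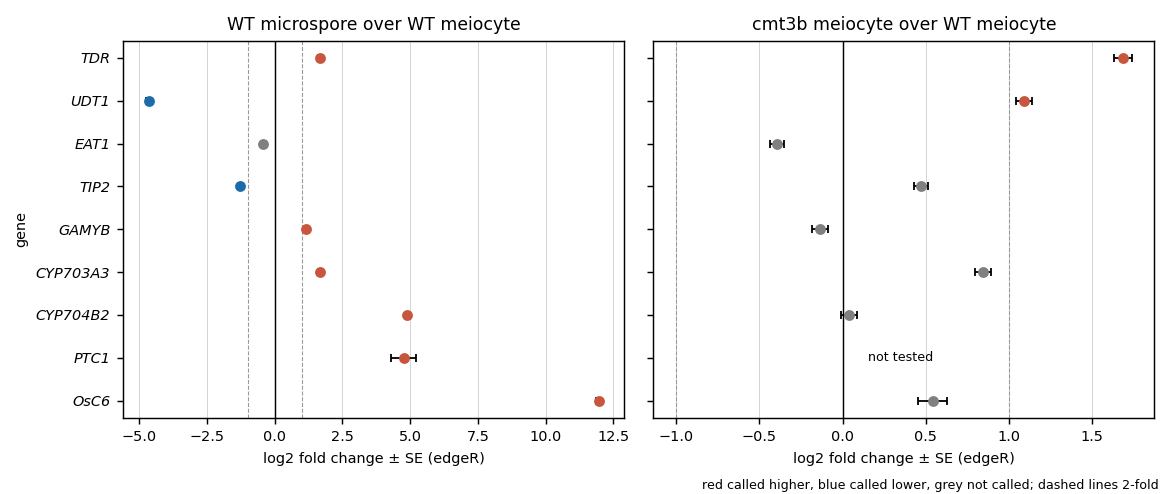
Log2 fold changes (points) with their standard errors (bars, edgeR) of the 9 genes for WT microspore over WT meiocyte (left) and *cmt3b* over WT meiocyte (right), with separate horizontal axes. Left, 6 genes are called higher and 2 lower, from −4.66 for *UDT1* to 11.96 for *OsC6*. Right, *TDR* and *UDT1* are called higher and *PTC1* was not tested.

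The other tapetum and pollen wall genes also differed from each other in direction. LOC_Os06g40550 had 0 counts in all WT meiocyte libraries and a mean of 201 FPKM in microspore, at least 8654-fold higher, and LOC_Os03g07140 rose by 8.40 on the log2 scale (SE 0.14). LOC_Os07g05630 was at 466 FPKM in meiocyte and 0.04 in microspore, a ratio of 9800 (95% counting interval 1759 to 387093), and LOC_Os02g28970 fell by 8.01 on the log2 scale (SE 0.11). LOC_Os06g40550 and LOC_Os07g05630 passed the filter only through the stage where they were high, which fixed the direction of their calls. The 21 genes summed to 902 to 920 FPKM in WT meiocyte, with 14 of them at 1 FPKM or more and 2 at 0 in every library, and to 6675 to 7115 FPKM in microspore, with 14 at 1 FPKM or more and none at 0 throughout. The meiotic list moved the other way, with 0 of its 10 genes called higher and 9 lower.

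**Figure D3:**
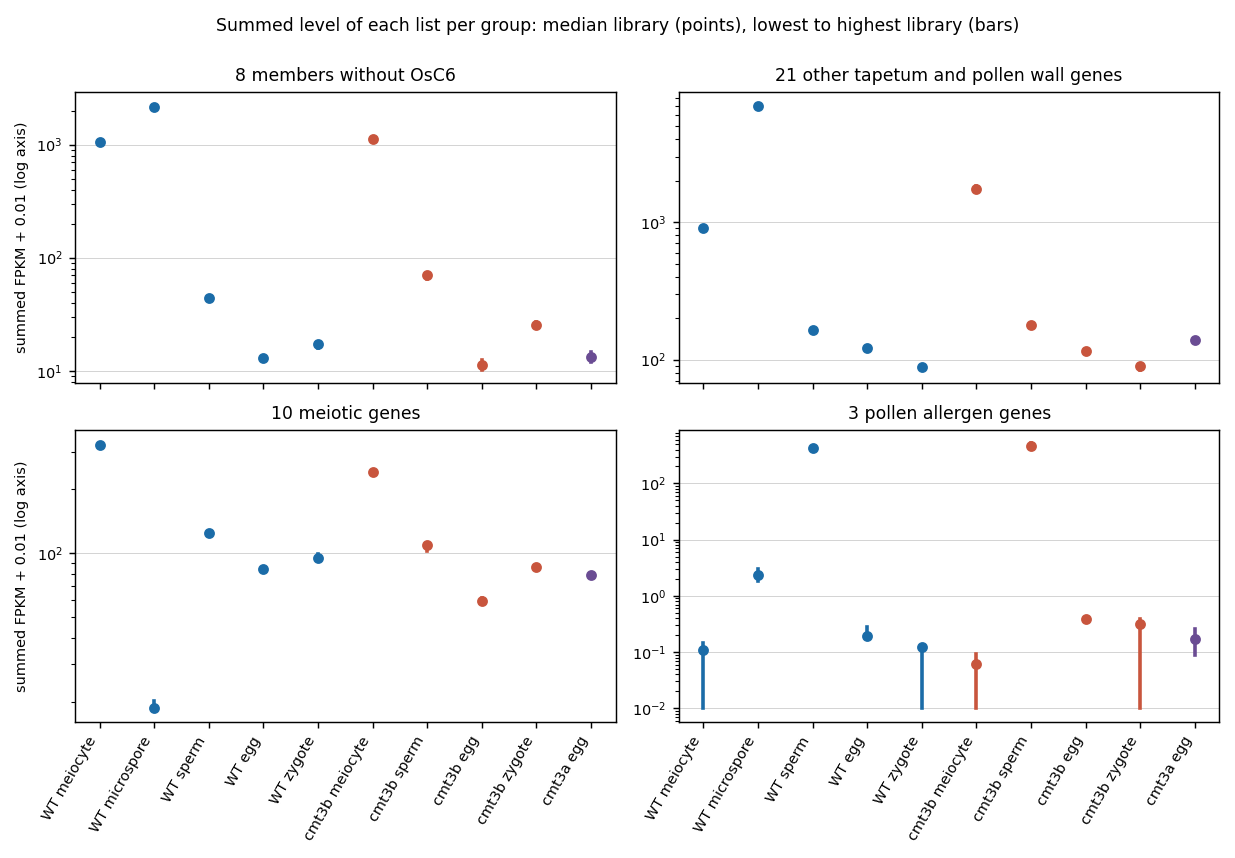
Summed FPKM (plus 0.01, log axis) of 8 of the 9 genes without *OsC6*, of 21 other tapetum and pollen wall genes, of 10 meiotic genes and of 3 pollen allergen genes in each group, with the median library as a point and the lowest to highest library as a bar. The 21 genes reach 6675 to 7115 FPKM in WT microspore and 164 to 166 in WT sperm, where the pollen allergen genes are at 427 to 429.

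For WT sperm, a gene was counted as higher or lower only if it was over 2-fold away, on 1 side, from each of the libraries compared with it. Against meiocyte 0 of the 9 genes were higher and 7 lower, with *UDT1* not counted and *PTC1* not passing the filter, while 32.6% of all 27037 genes were higher and 48.2% lower. Against microspore 1 was higher (*UDT1*) and 8 lower, while 32.7% of 26426 genes were higher and 46.8% lower. Except *GAMYB*, each gene counted as lower had at most 5 counts per WT sperm file and passed the filter only through the other group. Such a gene could not have been counted as higher. With the sperm level taken from the deeper file, *TDR* was lower in sperm than in meiocyte by a ratio of 1850 (95% counting interval 332 to 73054) and *TIP2* by a ratio of 4607 (827 to 181978). *CYP703A3* had a log2 ratio of −7.34. Of the 21 other tapetum genes, 4 were at 1 FPKM or more in WT sperm and 7 were at 0 in both files, and their sum of 164 to 166 FPKM came mostly from LOC_Os12g28750, at a mean of 156. A list of 3 pollen allergen genes, taken as a sign of mature pollen grain RNA, summed to 427 to 429 FPKM in WT sperm and to at most 2.98 in WT microspore. Reads from the near-identical copies among these 3 genes could have been split between them.

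Next, the effect of the *cmt3b* mutation was examined in meiocyte. *TDR* was at 205, 177 and 187 FPKM in *cmt3b* meiocyte, above the 63.0 to 70.1 of WT, and it rose by 1.68 on the log2 scale (SE 0.054, adjusted p = 1.19e-20, edgeR). *UDT1* was at 166, 167 and 170.5 FPKM, above the 84.7 to 94.9 of WT, and rose by 1.09 on the log2 scale (SE 0.046, adjusted p = 6.67e-18, edgeR). These 2 genes were called higher and none was called lower, while 10.7% of all 23192 genes were called higher and 7.90% lower. With total counts in place of TMM factors *UDT1* was at 0.90 and only *TDR* was called, and that scaling moved the median of all genes by −0.19. This comparison and that of microspore with meiocyte share the WT meiocyte libraries.

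The other members moved by less than 2-fold in *cmt3b* meiocyte. *CYP703A3* was at 52.9, 48.2 and 51.2 FPKM against 31.2 to 32.8 in WT, higher by 0.84 on the log2 scale (adjusted p = 5.69e-15, edgeR), and *TIP2* was at 281, 263 and 268 FPKM against 216 to 227, higher by 0.47 (adjusted p = 1.57e-10, edgeR). *EAT1* was lower, at 343, 370 and 359 FPKM against 520 to 557, with −0.39 (adjusted p = 5.05e-09, edgeR). These 3 genes did not overlap between genotypes, although none passed the fold limit. *TDR*, *UDT1*, *OsC6* and *GAMYB* did not overlap either, and the share of all genes without overlap is not given here. *OsC6* was at 16.1, 17.8 and 17.2 FPKM against 12.7 to 14.2 (log2 fold change 0.54, adjusted p = 5.49e-06, edgeR) and *GAMYB* at 31.5, 29.3 and 30.5 FPKM against 37.2 to 39.2 (−0.14, adjusted p = 0.0112, edgeR). *CYP704B2* was at 58.8, 53.8 and 56.8 FPKM against 60.8 to 66.3, but its libraries overlapped after TMM scaling, by a log2 change of 0.04 (adjusted p = 0.496, edgeR) that was −0.15 with total counts, and *PTC1* had at most 1 count in each *cmt3b* library and was not tested.

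The median log2 fold change over the 8 members tested was 0.51, against −0.02 over all genes. Of the 21 other tapetum genes 15 were tested, 4 were called higher, none lower and 11 not called, with a median of 0.56. The largest rises were those of LOC_Os11g45400 (log2 fold change 1.78, SE 0.045) and LOC_Os07g05630 (1.5, SE 0.046). The sum of the 21 genes was 1710 to 1828 FPKM in *cmt3b* meiocyte and 902 to 920 in WT. In WT a mean of 466 FPKM of this sum came from LOC_Os07g05630 alone, 1 of the genes that rose, so the sum does not stand for the whole list. The 10 meiotic genes summed to 236 to 245 FPKM in *cmt3b* and 321 to 329 in WT, with 0 called in either direction. The part of these shifts in the levels of the 9 genes was not tested.

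The same comparison was made in sperm, without a test. *TDR* had 475, 371 and 465 counts in the *cmt3b* sperm libraries (13.5, 11.6 and 11.9 FPKM), and 1 and 0 counts in the WT files. Against the deeper WT file, which held the 1 count, the ratio was 421 (95% counting interval 75.5 to 16622). *TIP2* had 282, 225 and 235 counts (10.6, 9.29 and 7.99 FPKM) against 1 in each WT file, a ratio of 239.5 (43.0 to 9460). *OsC6* had 593, 465 and 548 counts (38.8, 33.3 and 32.2 FPKM) against 0, at least 172-fold higher. *TDR*, *TIP2* and *OsC6* were therefore detected in every *cmt3b* sperm library and at or near 0 in WT sperm.

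*GAMYB* was at 37.6, 39.5 and 36.7 FPKM in *cmt3b* sperm and 2.66 and 2.58 in WT sperm, a log2 ratio of 3.58. *UDT1* went the other way, from 41.3 and 41.8 FPKM in WT sperm to 8.17, 10.03 and 7.83 in *cmt3b* sperm, a log2 ratio of −2.51. *EAT1* had 0, 1 and 3 counts, *CYP703A3* 0, 0 and 2, *CYP704B2* 1, 0 and 0, and *PTC1* 0 in all 3 *cmt3b* sperm libraries. *EAT1* and *CYP704B2* were thus at or under 3 counts in both genotypes, whereas in the meiocytes of each *EAT1* had at least 11277 counts and *CYP704B2* at least 1631.

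**Figure D4:**
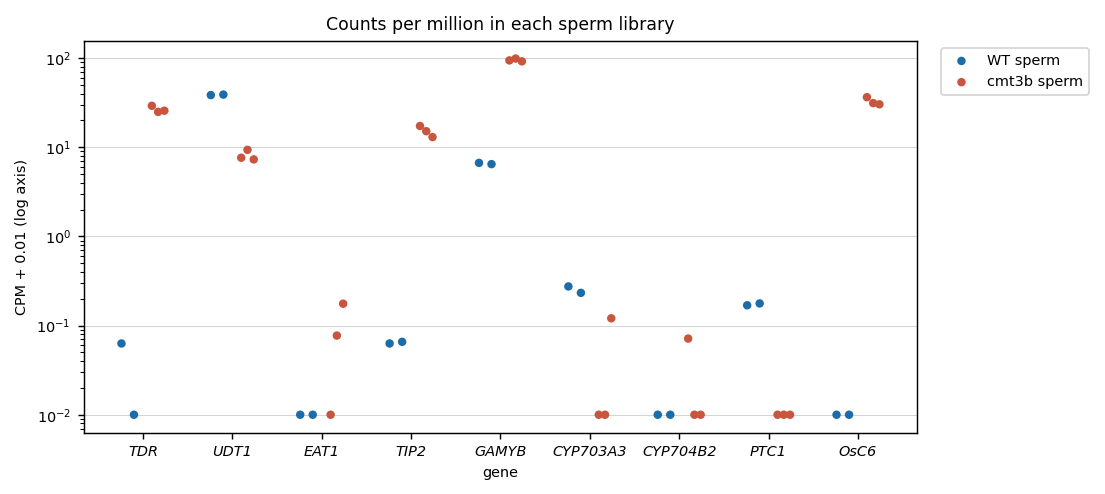
CPM (plus 0.01, log axis) of the 9 genes in each WT sperm file and each *cmt3b* sperm library. *TDR*, *TIP2*, *GAMYB* and *OsC6* are higher in *cmt3b*, *UDT1* is lower, and *EAT1* and *CYP704B2* have at most 3 counts in every library.

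Of the 9 genes, 5 passed the filter in the sperm comparison, 4 were counted as higher and 1 as lower, while 35.2% of all 22567 genes were higher and 32.9% lower. *TDR*, *TIP2* and *OsC6* passed only through *cmt3b* sperm, where they are high, so they could not have been counted as lower. *CYP703A3* (5 and 4 counts in WT, at most 2 in *cmt3b*) and *PTC1* (3 in each WT file, 0 in *cmt3b*) did not pass. The sperm genes summed to 973 to 1035 FPKM in *cmt3b* and 1686 to 1694 in WT, and the pollen allergen genes to 447 to 515 and 427 to 429. Of these 3 genes only LOC_Os03g01640 was counted as higher, at 108 ± 7.69 FPKM (SD, n = 3) in *cmt3b* and a mean of 13.6 in WT, and none as lower. Of the 21 other tapetum genes 13 passed the filter, 7 were higher and 4 lower. The sum of the 21 was 173 to 183 FPKM in *cmt3b* and 164 to 166 in WT. Most of both sums came from LOC_Os12g28750, at 125 ± 4.52 FPKM (SD, n = 3) in *cmt3b* and a mean of 156 in WT. The sums therefore say little about the other genes of the list. LOC_Os03g15710 was at least 56.6-fold higher in *cmt3b* and LOC_Os01g70440 at least 13.6-fold. LOC_Os10g34360, which had a mean of 3877 FPKM in WT microspore, was at 0 in WT sperm and at 0.05 FPKM in *cmt3b* sperm. The part of these shifts in the sperm levels was not tested, the spread of WT sperm is unknown, and the comparisons with meiocyte and microspore used the same WT sperm sample.

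Within the *cmt3b* mutant, sperm and meiocyte could be tested against each other. *OsC6* was called higher in sperm, by 1.11 on the log2 scale (SE 0.085, adjusted p = 2.49e-12, edgeR), and 6 genes were called lower, while 32.5% of all 24844 genes were called higher and 46.6% lower. *TDR* fell by 3.86, *UDT1* by 4.19 and *TIP2* by 4.78 on the log2 scale. *EAT1* was lower by a ratio of 8171 (95% counting interval 3191 to 29988), *CYP703A3* by 2723 (754 to 22488) and *CYP704B2* by 5332 (957 to 210603). These last genes had at most 3 counts in each *cmt3b* sperm library and passed the filter only through meiocyte. *EAT1*, *CYP703A3* and *CYP704B2* could therefore not have been called higher. *GAMYB* was at 0.40 (SE 0.063, adjusted p = 1.51e-06, edgeR) and was not called. With DESeq2 size factors *OsC6* was at 0.95, under 2-fold.

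The female cells served as a comparison without an anther. *GAMYB* and *UDT1* were the only 2 of the 9 genes at 1 FPKM or more in WT egg, where *GAMYB* was at 8.25, 8.15 and 8.51 FPKM and *UDT1* at 2.43, 2.92 and 2.44. *TDR* had 1 count in the 3 WT egg libraries together and none in the *cmt3b* egg, WT zygote and *cmt3b* zygote libraries, and *OsC6* had none in WT egg. Against WT egg, WT meiocyte was higher for 8 of 8 genes tested (30.6% of all 23516 genes were called higher and 20.9% lower), and WT microspore for 8 of 9 (35.0% higher and 31.8% lower of 23341). The exception was *UDT1*, for which microspore over egg was 0.77 on the log2 scale (SE 0.20, adjusted p = 0.00116, edgeR). Both comparisons share the WT egg libraries. *TDR*, *EAT1* and *OsC6* had at most 5 counts in each of these and *TIP2* at most 12. All of these genes passed the filter only through the male cells. They could therefore not have been called lower. *PTC1*, with 3, 7 and 7 counts in egg and 2, 2 and 0 in meiocyte, did not pass against meiocyte. Against microspore it passed only through microspore.

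Between WT zygote and egg, 3 of the 6 genes tested were called higher and 1 lower (13.1% and 9.64% of all 21265 genes), all at low levels. *CYP704B2* was at 2.26, 2.04 and 1.91 FPKM in zygote and 0.498, 0.577 and 0.497 in egg, and *OsC6* had 18, 21 and 23 counts in zygote and 0 in egg, at least 30.9-fold higher. *CYP703A3* was at 0.280, 0.279 and 0.367 FPKM in zygote and 0.759, 0.909 and 0.856 in egg, and fell by 1.19 on the log2 scale (SE 0.25, adjusted p = 5.97e-05, edgeR). *TIP2* was called higher, at 0.573 to 0.956 FPKM against 0.216 to 0.380. Both *TIP2* and *OsC6* passed the filter only through zygote and could not have been called lower.

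The mutants also differed from WT at these low levels in the female cells. In *cmt3b* zygote *TIP2* was called higher, at 1.73, 1.46 and 1.60 FPKM against 0.573 to 0.956 in WT (log2 fold change 1.20, SE 0.24, adjusted p = 9.89e-05, edgeR), as was *CYP703A3* (1.03, SE 0.30, adjusted p = 0.00331, edgeR), and *OsC6* had 0 counts in every library and was at least 16.2-fold lower, with 8.67% of all 20638 genes called higher and 8.08% lower. Since *CYP703A3* passed the filter only through *cmt3b* zygote and *OsC6* only through WT, the direction of these calls was fixed in advance. *GAMYB* was at 18.03, 19.5 and 17.4 FPKM against 9.65 to 10.8 in WT zygote, which was 0.86 higher on the log2 scale (SE 0.062, adjusted p = 6.22e-12, edgeR) and not called. The call of *CYP703A3* was lost without WT zygote replicate 1 or 2 or without *cmt3b* zygote replicate 3, where its log2 fold change was 0.96, 0.97 and 0.96, and also with total counts (0.997) and with the DESeq2 test (adjusted p = 0.0494).

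In *cmt3b* egg 1 of the 4 genes tested was called, *CYP704B2* at 1.16 and 0.733 FPKM against 0.497 to 0.577 (log2 fold change 1.08, SE 0.30, adjusted p = 0.00211, edgeR; 14.3% of all 21466 genes were called higher and 8.43% lower). It was not called without *cmt3b* egg replicate 1 (0.73, adjusted p = 0.131, edgeR). In *cmt3a* egg *CYP703A3* was called higher, at 1.68 and 1.94 FPKM against 0.759 to 0.909 (log2 fold change 1.45, SE 0.17, adjusted p = 6.79e-07, edgeR). *TIP2* and *CYP704B2* were called lower there, each with 1 count over the 2 libraries, at ratios of 17.6 (95% counting interval 3.16 to 696) and 38.2 (6.86 to 1509), while 19.6% of all 22744 genes were called higher and 18.5% lower. Both *TIP2* and *CYP704B2* passed the filter only through WT egg and could not have been called higher. The call of *TIP2* was lost without *cmt3a* egg replicate 1 (adjusted p = 0.0235, edgeR) and with the DESeq2 test (adjusted p = 0.0192). *TIP2* had a value under 9 alternatives and *CYP703A3* under 12. Under the remaining ones *TIP2* did not pass the filter, so it was not called there either. The *cmt3a* and *cmt3b* egg comparisons share the WT egg libraries.

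The 9 genes were then compared by the shape of their levels over the 10 groups. The Pearson correlation of log2(FPKM + 1) over the group means had a median of 0.72 over the 36 pairs, from −0.32 (*UDT1* and *PTC1*) to 0.97 (*EAT1* and *CYP703A3*), as a description, since the group means share libraries and cells. The correlations of *UDT1* with the other 8 genes reached at most 0.66 (with *TIP2*) and were 0.02 with *OsC6*, and those of *PTC1* ran up to 0.82 (with *OsC6*) and were 0.25 with *TIP2*. Over the 5 WT groups alone the median was 0.85, and as Spearman correlation over the 10 groups it was 0.44.

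Of 17517 genes with a group mean of at least 10 FPKM in any group, the one most like each member had a correlation between 0.971 (LOC_Os01g64630 with *GAMYB*) and 0.999 (LOC_Os01g49650 with *EAT1*). *EAT1* had 15 genes with a correlation over 0.99, *TDR* 2, and *UDT1*, *TIP2*, *GAMYB* and *PTC1* none. The gene most like *OsC6*, LOC_Os05g13650 (0.991), was at 41.9 FPKM in WT microspore, and the one most like *CYP704B2*, LOC_Os03g15340 (0.991), was at 2480 FPKM there. None of these genes was in the list of other tapetum and pollen wall genes.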

How the data were processed

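The series holds 59 samples, of which the 27 RNA-seq samples in 10 groups were used and the bisulfite sequencing samples were not analysed here. Groups were taken from the sample labels. Before deposition the authors trimmed reads with fastp (0.20.1 in the submitters' processing notes), mapped them by hisat2 onto MSU7.0 and assigned them to genes by featureCounts. Each deposited file has a column of raw counts, one of FPKM and one of TPM. The FPKM and TPM values were computed by the authors from the counts. The kit for cDNA amplification differs between the labels and the paper, and no batch is given in the sources used here. Columns with values of unknown samples numbered 0.

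Counts were analysed with edgeR 4.0.16 (limma 3.58.1) and, as an alternative, DESeq2 1.42.0 under R 4.3.3, and tables with Python 3.11.15. Each of 9 comparisons between replicated groups was fitted on its own over all genes (TMM factors, filterByExpr at a minimum count of 10, quasi-likelihood test, Benjamini-Hochberg adjustment). SE is the log2 fold change divided by the square root of F. A further 3 comparisons with WT sperm used log2 CPM ratios with a prior count of 2 on the rounded mean of both files and no test, although an edgeR test had been planned for them. Against a group with no count, a fold is a lower bound with 3 counts over the summed libraries as its level (the deeper file for WT sperm). A group with at most 3 counts in every library and at least 1 in all has a ratio with a 95% counting interval instead. For WT sperm this ratio also uses the deeper file alone. Intervals and floors cover counting error only. In any comparison, a gene with few or no counts in 1 group could pass the filter only through the other group. Its direction in the counts of genes called was then fixed by the filter. The fit was tested on simulated data first.

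The 9 genes and all lists were chosen with earlier results of these data known. All 9 were named in every comparison, and of the other genes at most the 2 highest and the 2 lowest called in a comparison, with LOC_Os12g28750, LOC_Os10g34360 and LOC_Os03g01640 added after their values were seen. Identifiers of the other lists came from general knowledge and are not annotated in the files, and 1 of 22 tapetum identifiers was not in them. Which cells of the anther express each listed gene was not checked. In the tapetum list, LOC_Os12g28750 was at a mean of 156 FPKM in WT sperm and 0.378 in WT microspore. The gene symbol table (RefSeq, assembly ASM3414082v1) matched 0 identifiers and held 8 of the 9 symbols, and since its build differs no coordinates or sequences are given. Replicates are separate samples in the labels, but whether they came from separate plants is not stated, so p-values measure the spread between these libraries, which may be technical.

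Alternatives were DESeq2 size factors, total counts, the DESeq2 test, no filter, 1 fit of all libraries, TMM factors over all libraries, a prior count of 0.5, TPM, a replicate block, each library left out, both WT sperm files as separate samples and, added after seeing the data, *OsC6* left out of the totals and the test of a difference between *cmt3b* effects.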

Additional observations from a re-analysis of the deposited data

Results flagged for a closer look

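For 4 of the 9 genes the *cmt3b* libraries lay above WT in one cell type and below it in another, without overlap. Only values that passed the filter on low counts were used. The share of all genes that did so is not given here, so the count is no trait of these genes. *UDT1* had a log2 fold change of 1.09 in meiocyte and a log2 ratio of −2.51 in sperm. *GAMYB* had −0.21 in egg, which was not called (adjusted p = 0.0418, edgeR), and a log2 ratio of 3.58 in sperm. *CYP704B2* had 1.08 in egg and −0.76 in zygote, where the change was under 2-fold and not called. *OsC6* had 8.05 in sperm, where WT had no count, and −7.20 in zygote, where *cmt3b* had none, so neither fitted value is a bound. *TIP2* (lower in egg), *CYP703A3* (lower in sperm) and *PTC1* (higher in zygote, lower in sperm) also had both directions once values under the filter were included, with at most 3 counts in every library of at least 1 genotype there.

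The differences that involve sperm were not tested, since WT sperm is 1 sample. For *CYP704B2* the *cmt3b* effect differed between egg and zygote by 1.83 (SE 0.38, adjusted p = 0.000103, edgeR interaction test with Benjamini-Hochberg adjustment over all genes), with 2 *cmt3b* egg libraries and an egg effect that was lost without *cmt3b* egg replicate 1. Of 22 such differences tested between meiocyte, egg and zygote, 11 had an adjusted p under 0.01. The share of all genes under that limit is not given here. The 22 differences share libraries and include the same gene more than once, so they are not separate results. Among the 11, *UDT1* differed between meiocyte and zygote by 0.75 (SE 0.16, adjusted p = 0.000165, edgeR) and *GAMYB* by −0.98 (SE 0.077, adjusted p = 4.18e-13, edgeR). For *TDR*, called in meiocyte, the difference from zygote could not be estimated, as no *cmt3b* or WT zygote library had a count. That difference is nevertheless among the 22.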

How the results depend on the processing

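Over 85 values of the 9 genes, 971 of 995 values under an alternative kept their direction and their side of the limits, 15 were no longer called, 2 became called and 7 changed sign. Cases in which a gene did not pass the filter in the main setting or under an alternative are not in these totals. In zygote against egg, where 4 of the 9 genes were called, leaving out 1 library gave 4 to 5. With total counts, 1 of the 9 genes was called in *cmt3b* against WT meiocyte in place of 2, and 0 in *cmt3b* egg in place of 1. The egg count was also 0 with the DESeq2 test and in 1 fit of all libraries, and leaving out 1 library gave 0 to 1 there. Values that changed sign were all uncalled ones. With total counts *CYP704B2* was at −0.15 in *cmt3b* meiocyte, *CYP703A3* at −0.16 in *cmt3b* egg and *UDT1* at −0.11 in *cmt3a* egg. *CYP703A3* in *cmt3b* egg was also at −0.026 in 1 fit of all libraries and ran from −0.070 to 0.17 with 1 library left out (below 0 without WT egg replicate 1 or *cmt3b* egg replicate 2), and *UDT1* in *cmt3a* egg from −0.029 to 0.42 (below 0 without *cmt3a* egg replicate 1). Total counts moved the median of all genes by −0.32 in microspore against meiocyte and by −0.19 in *cmt3b* meiocyte, and the share of calls that were higher from 57.5% to 43.8% in the latter. That share also went from 59.5% to 46.0% in meiocyte against egg, from 52.4% to 39.6% in microspore against egg, from 57.6% to 42.9% in zygote against egg, from 62.9% to 44.6% in *cmt3b* egg and from 51.4% to 36.9% in *cmt3a* egg. Without the filter or with the DESeq2 test the median of all genes moved by 1.29 and 1.497 in microspore against meiocyte and by 2.39 and 2.36 in microspore against egg, where 26831 genes were called without the filter in place of 15609. *UDT1* in WT sperm against meiocyte was at −1.10 with total counts and then counted as lower. In *cmt3b* zygote *CYP704B2* was called at −1.07 without replicate 3. The median correlation between the 9 genes was 0.44 with Spearman's method and 0.85 over WT groups.

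Replicate numbers did not pair the libraries, since 0 of 25 correlations of same-numbered deviations were over 0.1 (−0.082 to 0.049). With the replicate block *TDR* was at 1.65 in microspore against meiocyte and 1.68 in *cmt3b* meiocyte, and the number of genes called was as without it in every tested comparison except *cmt3a* egg, where it was 2 in place of 3. Without replication of WT sperm, the values against it rest on 1 sample, and levels under 3 counts are at the limit of depth.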
